A study of Homo sapiens with 6 samples.

Results

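The mRNAs described here encode the cytosolic ribosomal proteins. They were taken as the rows of the deposited gene table whose Ensembl identifiers map to protein-coding symbols of the RPL, RPLP, RPS or RPSA form, which gave 38 of 9675 genes, 27 of the large subunit (60S) and 11 of the small subunit (40S). RefSeq holds 87 protein-coding symbols of this form, and the others were not analysed here. Of the 38 genes, 36 had at least 20 footprints in both libraries together and are called measured below, 26 of the large and 10 of the small subunit. RPL10L had 2 eIF3b-bound footprints and 1 of 40S 1, and RPS4Y2 was listed at 0 in both.

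The samples were HEK293T cells, a human embryonic kidney line, grown for 48 h and then crosslinked for 5 min in 0.3% formaldehyde, in each group alike. After RNase I digestion, the RNA covered by small subunits was collected from a 40S fraction, either as it was (40S 1) or after a pull-down with a goat polyclonal antibody against eIF3b. eIF3b is a subunit of eIF3, the initiation factor that binds the 40S subunit and helps to bring it to mRNA. The gene table holds 947733 footprints of the eIF3b-bound library and 834172 of 40S 1, split into the 5′ UTR (leader), the start codon area, the coding sequence, the stop codon area and the 3′ UTR. A second 40S library exists in the series, but the gene table holds 40S 1 alone. The comparison is thus of 1 library with 1 library and has no test, and the 95% intervals given here (exact Clopper-Pearson) cover counting error only. The widths of the areas and the lengths of the transcripts were not used here, so footprints of different genes are not compared as levels. Counts of mRNA per gene were not used either, so more mRNA and more subunits per mRNA cannot be told apart. Below, a pair of counts gives the eIF3b-bound library first and 40S 1 second. Of 8 genes chosen to mark HEK293 cells, KRT8 had 267 and 100 footprints, NEFM had 15 and 50, and the others were not analysed here. Of 10 markers of other cell types, CD3E and HBB were at 0 in both libraries and COL1A2 had 6 and 0.

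Ribosomal protein mRNAs are among the most heavily translated messages of growing cells. Most of them begin with a 5′ terminal oligopyrimidine (TOP) tract, a C at the cap followed by a run of C and U, through which nutrient signalling by mTORC1 and the RNA-binding protein LARP1 sets their translation. Their leaders are short, and the proteins are needed in equal numbers, since each ribosome carries a single copy of nearly every one and more copies only of the stalk proteins.

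The tract was looked for in the DNA around annotated gene starts in RefSeq (GRCh38.p14), since it is the feature these mRNAs are known for. A C followed by at least 4 bases that were each C or T, read on the strand of the gene with its C exactly at an annotated start, was present in 18 of the 30 members with an entry (60%). RPL5, RPL7, RPL8, RPL30 and RPL39L were among those with no entry. The same letters stood at an annotated start of 5.14% of 27305 genes in RefSeq and of 6.53% of the 3336 other measured genes with an entry. Allowing the tract to begin up to 10 bases on either side, it was found in 26 of 30 members (86.7%), against 38.4% of genes in RefSeq. A gene with several annotated starts counts if any of them matches, and a match is a description of the letters, not evidence of which start these cells use. The windows of 10 of the best-covered members run 5′ to 3′ on the strand of the gene, over the 10 bases before the annotated start and the 20 from it on. Capitals mark the pyrimidine run whose first C lies nearest to that start.
RPLP2, chr11:809957-809986, plus strand: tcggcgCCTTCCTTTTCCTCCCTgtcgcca
RPL13, chr16:89560672-89560701, plus strand: gggccgCTTCCTTTCCgctcggctgttttc
RPS12, chr6:132814559-132814588, plus strand: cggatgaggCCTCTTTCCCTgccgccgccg
RPL41, chr12:56116623-56116652, plus strand: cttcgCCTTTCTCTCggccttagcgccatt
RPL4, chr15:66504836-66504865, minus strand: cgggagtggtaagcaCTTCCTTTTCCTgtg
RPLP0, chr12:120201092-120201121, minus strand: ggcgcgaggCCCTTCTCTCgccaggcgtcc
RPS18, chr6:33272065-33272094, plus strand: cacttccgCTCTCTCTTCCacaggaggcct
RPS25, chr11:119018324-119018353, minus strand: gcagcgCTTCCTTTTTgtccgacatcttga
RPL35A, chr3:197950180-197950209, plus strand: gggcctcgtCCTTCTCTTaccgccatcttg
RPS28, chr19:8321486-8321515, plus strand: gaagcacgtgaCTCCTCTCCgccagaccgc
In these windows the run lies across the annotated start in most genes, and in RPL4 and RPS28 it begins after it. Another 4 members were chosen after the values were seen. RPSA, RPL36AL and RPS26 are shown because a value of each stands at an end of its range, and RPL26L1 as a paralog.
RPSA, chr3:39406710-39406739, plus strand: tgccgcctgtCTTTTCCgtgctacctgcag
RPL36AL, chr14:49620607-49620636, minus strand: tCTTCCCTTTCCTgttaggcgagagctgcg
RPS26, chr12:56041908-56041937, plus strand: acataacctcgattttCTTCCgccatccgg
RPL26L1, chr5:172958719-172958748, plus strand: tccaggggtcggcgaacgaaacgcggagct
RPSA has a run that begins at its annotated start. RPL36AL has one that begins before it, RPS26 a short one after it, and RPL26L1, a paralog of RPL26, has no such run in the window.

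Small subunits on ribosomal protein mRNAs were found at the start codon in a larger share than on other mRNAs, and in 3′ UTRs in a smaller one. Summed over the members, the start codon area held 36.1% of 60839 footprints in the eIF3b-bound library (interval 35.7 to 36.5%) and 28.5% of 39413 in 40S 1 (28.1 to 28.9%). Summed over the other genes, it held 16.7% and 7.53%, and 16.5% and 9.98% without the 10 genes highest in 40S 1. The 3′ UTR held 8.53% and 12.7% of the members' footprints, against 13.9% and 49.1% for the other genes, or 13.4% and 39.7% without those 10. These are shares of counts, so the length of each area enters them.

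Gene by gene, start codon shares were also higher. The median start codon share of the 36 measured members was 35.8% (eIF3b-bound) and 28.3% (40S 1). Over 1589 other genes with at least 200 footprints it was 10.4% and 6.25%. The start codon share of 31 of the 36 members in 40S 1, and of 27 in the eIF3b-bound library, lay above the upper quartile of those other genes, and 0 lay below the lower quartile. In 40S 1, the 3′ UTR share of 28 of the 36 members lay below the lower quartile of the other genes, and 1 member, RPL22L1, lay above the upper one. In the eIF3b-bound library 15 lay below and 5 above. Stop codon shares were high as well, with medians of 1.14% and 3.75% over the members against 0% and 0.781% over the other genes. The 0% stands for genes with no stop codon footprint in that library, and depth was not matched. Members made up 32 of the 156 genes with at least 20 stop codon footprints and 28 of the 100 genes with the most start codon footprints. They were also 19 of the 100 genes with the most footprints over all areas, so these counts partly follow the members' depth.

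The members themselves ranged widely. RPS26, which lines the mRNA exit channel of the small subunit, had the highest start codon share in 40S 1, at 53.6%, followed by RPS18, a protein of the small subunit head, at 52.9%. RPL13A, a large subunit protein also known as a target of interferon-gamma signalling, had the highest share in the eIF3b-bound library, at 70.1%. The lowest shares in 40S 1 were 4.26% in RPL39L, 6.79% in RPSA and 8.09% in RPL4. In RPSA, whose protein (uS2) sits on the solvent side of the small subunit, leaders took 74.5% of the eIF3b-bound footprints and 46.4% of those of 40S 1. In RPL4, whose protein reaches into the nascent peptide tunnel, the 3′ UTR took 37.5% and 38.6%.

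**Figure D1:**
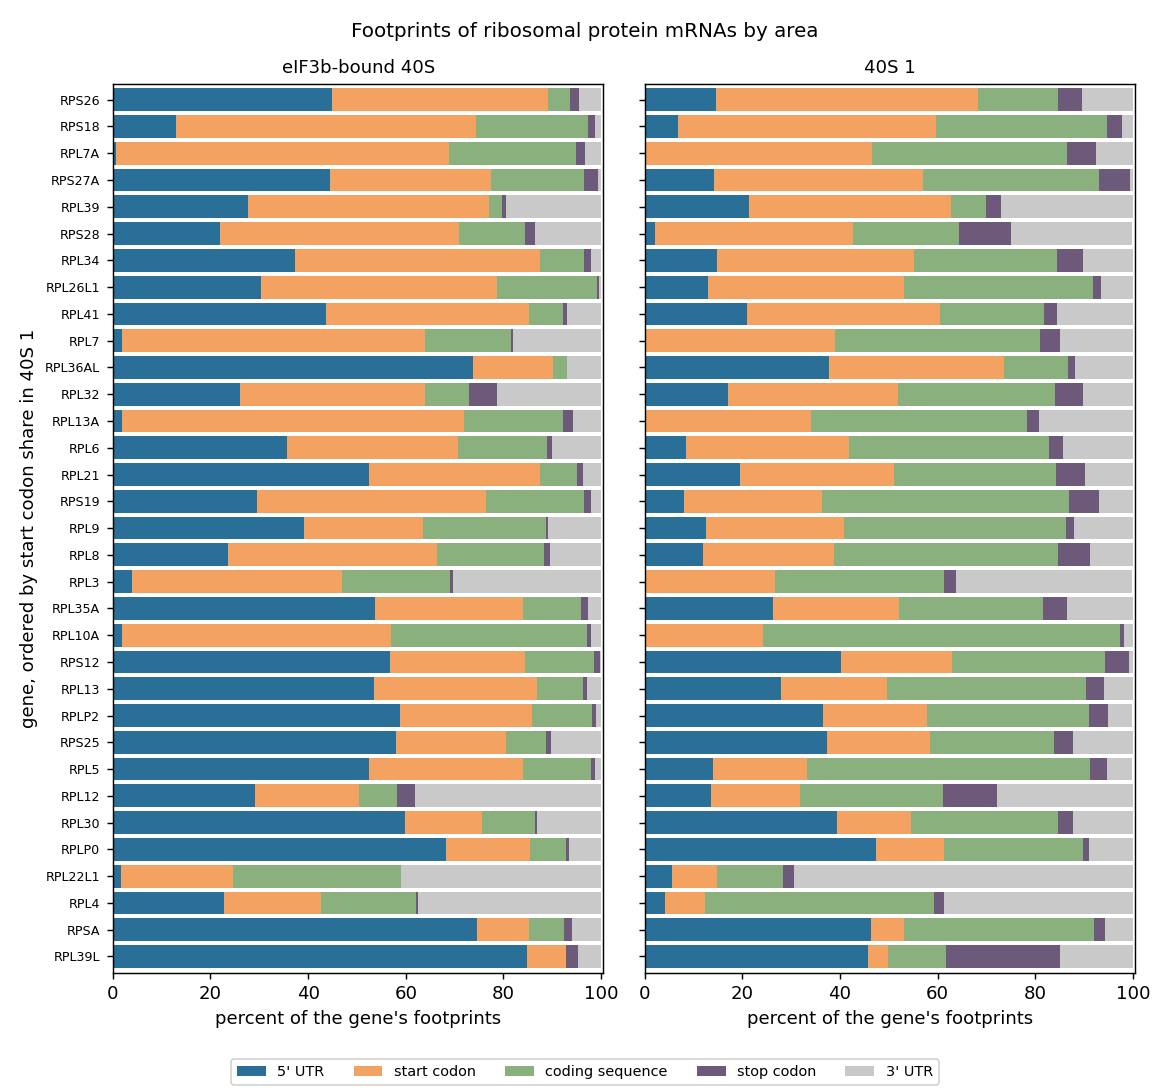
Share of each gene's footprints (percent, x axis) in the 5 areas, for 33 of the 36 measured ribosomal protein genes (y axis, ordered by start codon share in 40S 1), with 1 panel for each library. The start codon segment reaches 53.6% in RPS26 in 40S 1, and the leader segment of most genes is longer in the eIF3b-bound library.

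A group of members had almost no footprints in the leader while their start codons were well covered. RPL13A had 16 leader footprints, and 0 of its 878 footprints in 40S 1, which allows a share of up to 0.342%, beside 631 and 299 at the start codon. RPL7 had 14, and 0 of 934 in 40S 1, which allows up to 0.321%, beside 469 and 365. RPL7A had 7 and 4, and RPL10A, a protein of the mobile L1 stalk, had 7 and 1. RPL3, a protein near the peptidyl transferase centre, had 39 and 3. Low leader shares were not more common than among the 1589 other genes. Of the 36 measured members, 8 (eIF3b-bound) and 7 (40S 1) lay below the lower quartile of those genes, about as many as a quartile implies. Above the upper quartile lay 2 and 9. By count, 8 members had fewer than 100 eIF3b-bound leader footprints, with no share over other genes computed. Among them, RPL26L1 had 71, which was 30.3% of its 234 eIF3b-bound footprints. RPL22L1 had 1, with few at its start codon as well (14 and 8). At the other end, RPLP2 had 2338 and 566 leader footprints, RPS12 2004 and 679, and RPL13 1980 and 501. More footprints lay at the start codon than in the leader in 16 of the 36 members (eIF3b-bound) and in 26 (40S 1), against 22.8% and 32.7% of the 1589 other genes.

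The members held 6.42% of the eIF3b-bound library (interval 6.37 to 6.47%) and 4.72% of 40S 1 (4.68 to 4.77%). This order rested on a few other genes: without the 10 genes highest in 40S 1, none of them a member, the shares were 6.54% and 6.64%. Area by area, the members held 5.12% of the eIF3b-bound leader footprints and 7.71% of those of 40S 1, and 12.9% against 15.8% of the start codon footprints. They held 5.13% against 5.45% of the coding sequence footprints and 13.7% against 14.7% of the stop codon footprints. In the 3′ UTR the order was the other way, with 4.04% against 1.27%, and 4.25% against 2.23% without the 10 genes. Outside the 3′ UTR the members thus held a smaller part of the eIF3b-bound library than of 40S 1, and at stop codons the intervals (12.8 to 14.7% and 14.1 to 15.4%) overlapped.

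**Figure D2:**
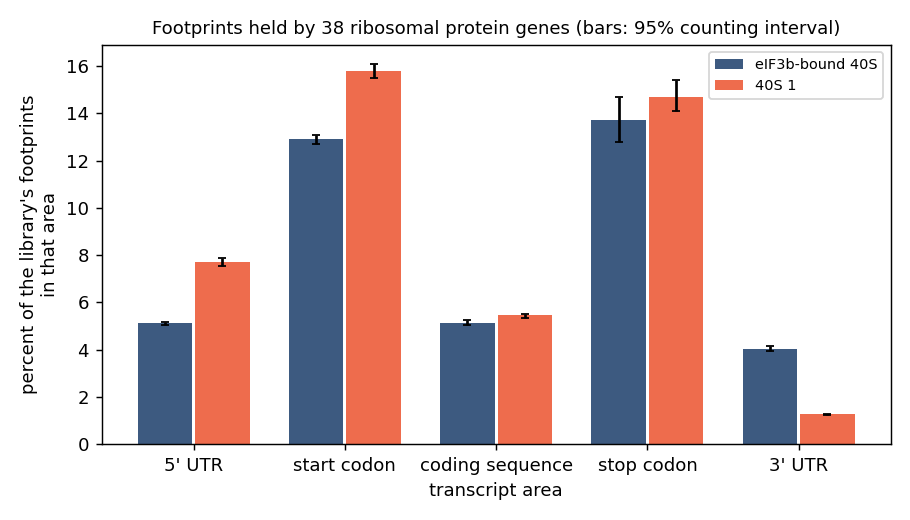
Share of each library's footprints in an area (percent, y axis) that lay in the 38 ribosomal protein genes, by area (x axis), with 95% counting intervals. The members held 15.8% of the 40S 1 and 12.9% of the eIF3b-bound start codon footprints, and 1.27% and 4.04% of the 3′ UTR footprints.

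Over whole genes, the ratio of eIF3b-bound to 40S 1 footprints varied less among ribosomal protein mRNAs than among other genes. It is given as log2 of CPM, the count scaled to the total of its library, with a prior count of 0.5. The median of the 36 members was 0.48, against 0.25 over 4175 measured genes and 0.48 over the 1589 other genes with at least 200 footprints. The quartiles of the members were -0.08 and 0.83, an interquartile range of 0.91, while that of those 1589 genes was 1.42. Relative to the median gene, 1 of 36 members was at least 2-fold higher, where 18.2% of all measured genes were, and 0 were at least 2-fold lower, where 22.2% were. Among genes with at least 200 footprints the counts were 1 and 0 of 35 members, against 19.7% and 14.8% of genes. By counting error alone, 20 members lay above the median gene (background 32.9%) and 13 below it (33.1%). Such counts, here and by area below, rise with the footprints of a gene in either direction. At least 200 footprints were found in 35 of 36 members but in 1624 of 4175 measured genes. The backgrounds by counting error are thus not matched in depth, and among genes with at least 200 footprints depth was not matched either.

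The position of the members against the median gene depended on which areas were counted. With all areas it was 0.23 above the median gene. With the leader, start codon and coding sequence alone, the members' median was -0.16 and lay 0.32 below the median gene of the same 3 areas. There 0 of 36 members were at least 2-fold higher (background 13.4%) and 8 at least 2-fold lower (19.3%). Within the leader, the start codon and the coding sequence, the medians of the members lay below those of all genes, and in the 3′ UTR above.

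The gene with the highest ratio was RPL36AL, a paralog of RPL36A, with 910 and 312 footprints. Its log2 ratio was 1.36 (interval 1.17 to 1.55), and no other member was at least 2-fold above the median gene. RPL39L, a paralog of RPL39, followed with 250 and 94 footprints and a ratio of 1.22 (0.88 to 1.58). Reads of such paralogs can be shared with the near-identical gene, so both values are uncertain. Then came RPLP2 with 3970 and 1549 footprints and RPL35A, one of the genes mutated in Diamond-Blackfan anaemia, with 2323 and 993, at ratios of 1.17 and 1.04. At the low end, RPSA had 1060 and 1472 footprints, a ratio of -0.66 (-0.77 to -0.54). RPL7A had 946 and 1184 (-0.51), RPL7 757 and 934 (-0.49) and RPL3 990 and 1146 (-0.40), and these 3 are among the members with few leader footprints. RPL22L1, a paralog of RPL22, had 61 and 88 footprints and the lowest ratio, -0.71 (-1.21 to -0.23). Across the 36 members the ratio went with the leader share of the gene in 40S 1 (Pearson's r 0.61, Spearman's rho 0.68, across genes, which are not independent, with counts of 40S 1 in both measures).

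**Figure D3:**
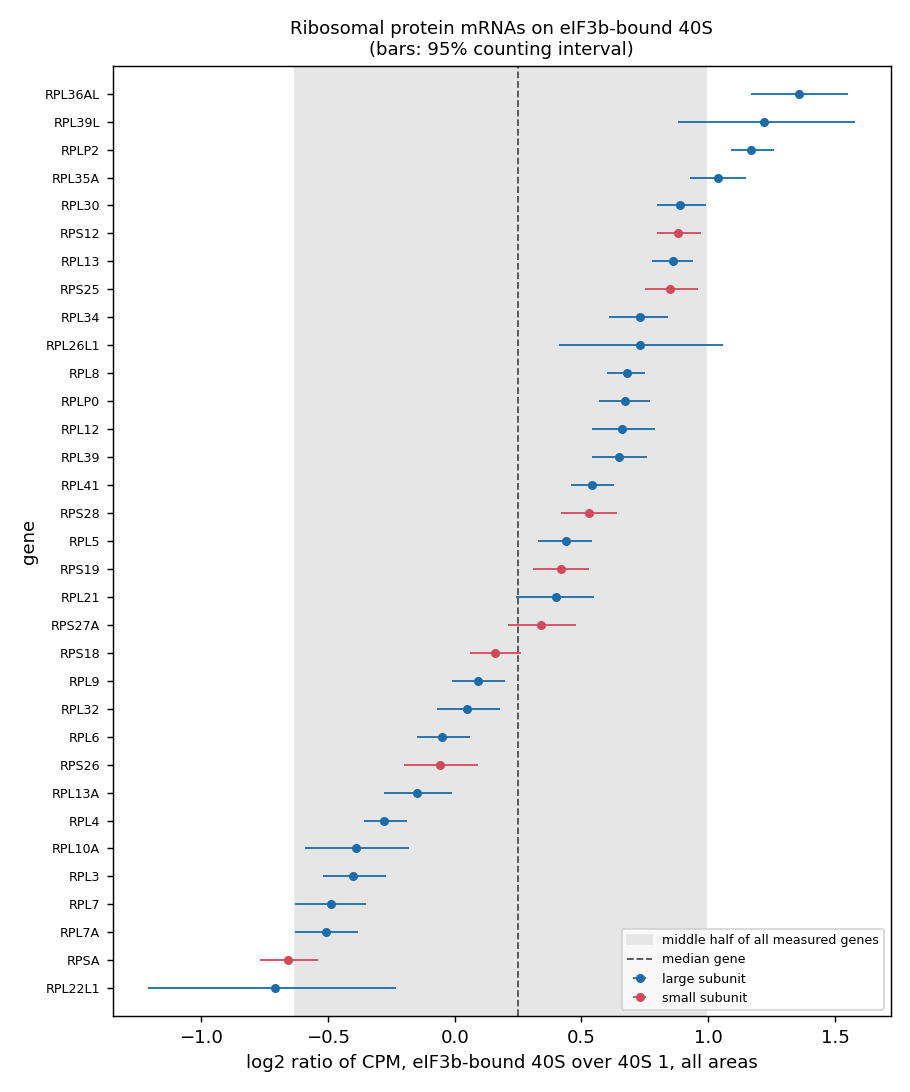
Log2 ratio of CPM, eIF3b-bound library over 40S 1, all areas (x axis), for 33 of the 36 measured ribosomal protein genes (y axis) with 95% counting intervals. The grey band spans the quartiles of all measured genes and the line in it their median, 0.25. The members run from -0.71 in RPL22L1 to 1.36 in RPL36AL, with both subunits mixed along the range.

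Along the mRNA, members measured in the leader, the start codon and the coding sequence had the highest ratio in the leader, a lower one at the start codon and the lowest in the coding sequence, in 30 of 30 genes. The same order held in 74.8% of 937 other genes measured in these 3 areas. The order was taken from the values alone, and in some members the intervals of leader and start codon overlapped. In RPSA they were 0.03 (-0.12 to 0.18) and 0.02 (-0.38 to 0.42). Depth was not matched. At least 200 leader footprints were found in 28 of 31 measured members but in 584 of 2407 measured genes, and low counts can disturb the order.

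In leaders, eIF3b-bound footprints were over-represented on these mRNAs as they were on most mRNAs, but by less. The 31 measured leaders had log2 ratios from 0.03 to 3.83 and a median of 1.86, against 2.27 over 2407 genes. 26 of them lay below the median gene and 5 above it. At least 2-fold below it were 5 members (background 12.8%), and at least 2-fold above it 2 (14.7%). Among leaders with at least 200 footprints, 5 of 28 members were 2-fold below, against 4.28% of genes, and 1 was 2-fold above, against 4.62%. By counting error 18 lay below (16.8%) and 1 above (15.4%). RPSA was the lowest. Its leader had 790 and 683 footprints, a ratio of 0.03 (-0.12 to 0.18), so the libraries were nearly level on it. The others 2-fold below the median gene were RPL32 (301 and 166 footprints, 0.67), RPL39, at the exit of the peptide tunnel (524 and 227, 1.02), RPS18 (252 and 105, 1.07) and RPLP0 (1535 and 592, 1.19). RPS28, a small subunit protein near the mRNA exit, was the highest. Its leader had 396 and 24 footprints, a ratio of 3.83 (3.27 to 4.52). RPL3, with 39 and 3, had 3.31 and a wide interval (1.86 to 5.85) that included the median gene.

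At start codons the members again lay below the median gene. The 36 ratios ran from -0.33 to 2.00 with a median of 0.89, against 1.22 over 1333 genes, and 30 lay below that median and 6 above it. At least 2-fold below it were 8 members (background 12.5%), and 0 were at least 2-fold above it (14.6%). Among start codons with at least 200 footprints, 8 of 33 members were 2-fold below, against 5.75% of genes, and 0 above, against 3.1%. Counting error left 22 below (18.2%) and 4 above (17.9%). RPS26 had the lowest ratio, with 374 and 415 footprints, -0.33 (-0.54 to -0.13). RPS27A, made as a fusion with ubiquitin, had 360 and 325 (-0.04), and RPL9 391 and 374 (-0.12), so in these 3 genes the start codon counts of both libraries were close. RPL6, RPL7, RPL7A, RPL32 and RPSA were the other 5, at 0.02 to 0.18. The 3 genes with the most start codon footprints were RPL8, a protein near the peptidyl transferase centre, with 1809 and 621 (1.36), RPS18 with 1201 and 815 (0.37) and RPL41, the smallest ribosomal protein, with 1276 and 732 (0.62). RPL39L reached 2.00 on 20 and 4 footprints.

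In coding sequences 34 of the 35 measured members had a lower CPM in the eIF3b-bound library than in 40S 1. So did most of the 2734 measured genes, whose quartiles were -1.49 and 0.26. The members' ratios ran from -3.09 to 0.60 with a median of -1.03, against -0.64 over those genes. At least 2-fold below the median gene were 5 members (background 21.4%), and 1, RPL22L1 with 21 and 12 footprints, was at least 2-fold above it (22.4%). Among coding sequences with at least 200 footprints, 4 of 30 members were 2-fold below, the same share as among genes (13.3%), and 0 above, against 24.6%. By counting error 20 lay below (26.5%) and 7 above (29.2%). RPSA again had the lowest value. It had 76 and 572 footprints there, a ratio of -3.09 (-3.46 to -2.75), and the next lowest was RPS26, with 37 and 127 (-1.95, -2.53 to -1.43). Many footprints were counted in RPL8 with 922 and 1069 (-0.40) and in RPL4 with 398 and 1026 (-1.55). RPL39L had 11 coding sequence footprints in 40S 1 and 0 of its 250 eIF3b-bound ones, which allows up to 1.2%.

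At stop codons the median of the members was close to that of all genes. The 32 measured members had a median of -1.33, against -1.30 over 156 genes of which they were part. At least 2-fold below the median gene were 3 members (background 20.5%) and at least 2-fold above it 1 (17.9%). By counting error 5 lay below and 1 above, where 19.2% of genes lay on either side. RPL8 had 50 and 154 stop codon footprints (-1.80), RPS28 39 and 117 (-1.76) and RPL12, at the base of the stalk, 54 and 92 (-0.95). RPL32, the member 2-fold above, had 66 and 57 (0.03, -0.51 to 0.56), so the libraries were nearly level on it. RPL7 had 2 and 39 (-4.17, -7.57 to -2.52).

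In 3′ UTRs the members stood higher than the median gene. The 33 measured members had ratios from -1.88 to 1.11 and a median of -0.61, against -1.53 over 2741 genes, and 30 lay above that median. At least 2-fold above it were 15 members (background 28.9%), and among genes with at least 200 footprints there 12 of 17 members (33.5%). None was at least 2-fold below it, where 23.9% of genes were, and by counting error 21 lay above (32%) and 0 below (27.5%). RPL12 had 574 and 233 footprints, a ratio of 1.11 (0.89 to 1.34). RPL4 had 769 and 845 (-0.32) and RPL3 300 and 413 (-0.64). RPL12 thus had the higher CPM in the eIF3b-bound library, and RPL4 and RPL3 in 40S 1. RPL32 (246 and 100), RPL30 (349 and 155), RPL8 (442 and 201), RPL36AL (64 and 37) and RPS25 (236 and 138) were also above 0, at 1.11, 0.98, 0.95, 0.60 and 0.59. RPL13A had the lowest value, with 52 and 169 (-1.88, -2.36 to -1.43), an interval that included the median gene.

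**Figure D4:**
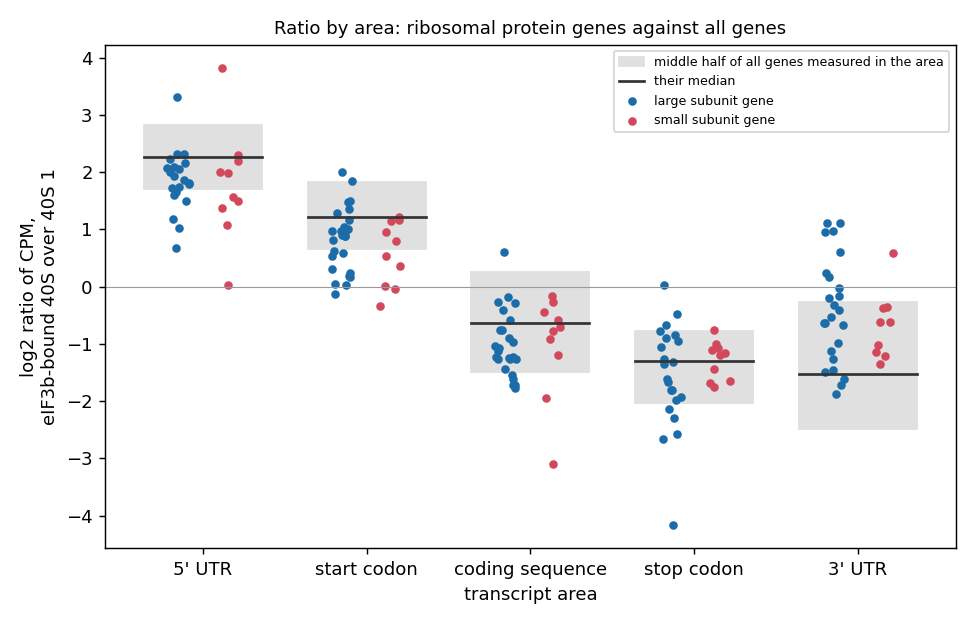
Log2 ratio of CPM, eIF3b-bound library over 40S 1 (y axis), by area (x axis). Points are ribosomal protein genes with at least 20 footprints in the area, coloured by subunit. Grey boxes span the quartiles of all genes measured in the area, with their median as a line. The members' medians lie below that line in the leader (1.86 against 2.27), the start codon (0.89 against 1.22) and the coding sequence (-1.03 against -0.64), and above it in the 3′ UTR (-0.61 against -1.53).

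The ratios of large and small subunit genes overlapped in range. Over all areas the median was 0.59 for 26 large subunit genes and 0.38 for 10 small subunit genes, a difference of 0.21, which was 0.11 without the paralogs, while the large subunit ran from -0.71 to 1.36 and the small from -0.66 to 0.99. The difference was 0.09 in leaders, 0.23 at start codons, -0.38 in coding sequences, -0.30 at stop codons and 0.15 in 3′ UTRs. At start codons 10 of 10 small subunit genes and 20 of 26 large subunit genes lay below the median gene. In summed footprints, the start codon held 38.6% and 31.9% of the small subunit footprints in the eIF3b-bound library and 40S 1, and 35.1% and 27.0% of the large subunit footprints. The 3′ UTR held 4.41% and 7.47% of the small, and 10.2% and 15.0% of the large subunit footprints. Genes are not replicates, and no test was made of these differences.

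The acidic stalk of the large subunit, which recruits elongation factors, was represented by RPLP0, its base, and RPLP2. Both had leader-rich footprints, with the leader taking 68.2% and 47.4% of RPLP0 and 58.9% and 36.5% of RPLP2 in the eIF3b-bound library and 40S 1. RPLP2 was higher than RPLP0 in the leader (1.86 against 1.19, with intervals of 1.73 to 2.00 and 1.05 to 1.33), at the start codon (1066 and 332 footprints, 1.32 to 1.68, against 387 and 173, 0.72 to 1.24) and in the coding sequence (-0.26 against -1.26). RPLP0 was higher in the 3′ UTR, with 150 and 112 footprints (0.24) against 40 and 77 in RPLP2 (-1.12). Among the other well-covered mRNAs, RPS12 had 3537 and 1686 footprints (0.88), RPL13 3700 and 1792 (0.86), RPL30 2670 and 1264 (0.89), and RPS25, which takes part in initiation on some viral internal ribosome entry sites, 2312 and 1125 (0.85). These 4 lay within 0.04 of each other. The other well-covered genes were lower: RPL8 had 4220 and 2323 (0.68), RPL41 3059 and 1847 (0.54), RPS18 1956 and 1541 (0.16) and RPL4 2052 and 2189 (-0.28).

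Other genes of the same pathway were compared as lists, without a test. Of 22 symbols listed for other mRNAs known to carry a TOP tract, 5 were measured. Their whole-gene median was -0.73, with 0 at least 2-fold higher than the median gene and 2 lower. Among them EEF1B2, an elongation factor subunit, had 1143 and 553 footprints (0.86), and EEF1G, of the same complex, 902 and 1315 (-0.73). The medians of the list were 1.84 in 4 leaders and 0.85 at 5 start codons, near the 1.86 and 0.89 of the cytosolic ribosomal proteins, and -1.60 in coding sequences and -1.49 in 3′ UTRs. Their median start codon shares were 25.4% and 17.9%. Of 57 ribosome biogenesis factors, 28 were measured, with a median of 0.00, 3 at least 2-fold higher than the median gene and 6 lower, and start codon shares of 22.3% and 7.63%. Of 77 mitochondrial ribosomal proteins, which are made on the same cytosolic ribosomes, 37 were measured. Their whole-gene median was 0.46, close to the 0.48 of the cytosolic proteins, with 6 at least 2-fold higher than the median gene and 0 lower. By area they stood at 2.29 in leaders, 1.27 at start codons and -0.07 in coding sequences, where the cytosolic members had 1.86, 0.89 and -1.03. In 3′ UTRs their median was -0.67, with 14 of 29 at least 2-fold higher than the median gene and 2 lower, close to the -0.61 and the 15 of 33 of the cytosolic members. Their median start codon shares were 28.6% and 14.8%, between those of other genes and of the cytosolic members in both libraries.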

How the data were processed

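Per the labels' protocols, cultures of HEK293T kept at 37 °C for 48 h were fixed and lysed, and 40S and 80S fractions were taken from the lysate after digestion with RNase I. Of 6 libraries in the series, the eIF3b-bound 40S library and 40S 1 have counts per gene in the table used here. Per the labels, the libraries numbered 1 were sequenced in pairs and read 1 alone was used. The labels do not say whether libraries came from separate cultures. The submitters' processing notes name CASAVA 1.8, Bowtie 1.2.2, TopHat2 2.1.0, Bowtie2 2.2.6 and the build GRCh38. What each program did, whether strand was used and how multiply matching reads were counted is not given in the sources used here, so ribosomal protein genes with near-identical copies or processed pseudogenes are uncertain.

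The authors deposited whole-number counts of footprints per gene and area, per the file headers, with no normalization. Symbols were found for 8322 of 9675 identifiers. Ratios are log2 of CPM over the totals of all genes, with a prior count of 0.5, for genes or areas whose counts in both libraries add up to at least 20. With 1 library per group a gene is called at a 2-fold difference from the median gene of the same area, and background shares are those over all genes measured. Intervals are exact Clopper-Pearson at 95% (scipy 1.17.1), and a count of 0 is bounded at 3 counts. Both cover counting error alone and take each read as independent. Reads that carry no molecular identifier are not independent molecules, so the intervals can be too narrow. The ratio step was tested on simulated data.

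Gene starts come from RefSeq (GRCh38.p14), matched by symbol for 30 members. Genes were named by these rules: the 10 members with the most footprints, the 5 highest and 5 lowest ratios, the 3 with the most footprints and both extremes per area, the stalk genes, RPSA and the paralogs. Outside these rules, RPL6, RPL9, RPL39 and RPS27A were named for a value at least 2-fold below the median gene in an area. RPL10A was named for its few leader footprints. The values of 3 measured members enter the counts and medians but are not reported here singly. The members and lists were chosen with earlier results of these data known. The comparison with genes of at least 200 footprints, and the calls on the leader, start codon and coding sequence alone, were chosen after the data were seen. The alternatives tried were the prior count, the count minimum, the totals, the areas counted, the paralogs, the largest member and the fold.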

Additional observations from a re-analysis of the deposited data

How the results depend on the processing

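No paired analysis was possible because counts per gene exist for 1 eIF3b-bound library and 1 40S library alone, both numbered 1. Without the 10 genes highest in 40S 1 in the totals, the median gene moved from 0.25 to -0.22 and the members with it, from 0.48 to 0.02 over all areas, to 1.40 in leaders, 0.42 at start codons and -1.50 in coding sequences, so the distance to the median gene stayed at 0.23. The members' shares of the libraries were then 6.54% (eIF3b-bound) and 6.64% (40S 1). With the leader, start codon and coding sequence alone, the median of the members turned to -0.16, 0 members were 2-fold higher than the median gene and 8 lower, the leader shares were 44.8% and 21.6%, and the shares of the libraries 6.75% and 7.65%. At least 2-fold above the median gene were 2 members with no filter and 0 without the paralogs. At 1.5-fold, 9 members lay above and 6 below. Without the paralogs the eIF3b-bound leader share was 39.8% and the shares of the libraries 6.27% and 4.65%. Without the member with the most counts in 40S 1 they were 41.7%, 5.97% and 4.45%. The cause was not tested where a value moved. Of 61 values under alternatives, 38 moved by less than counting error or, for counts, by less than 1.5 times. The depth limits stop codon areas and the paralogs most, and without a replicate the spread between libraries is unknown.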

Other observations

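The members with and without a pyrimidine tract exactly at an annotated start were set side by side after the data were seen, with no test. Of the 28 measured members with a RefSeq entry, 26 had a tract that began within 10 bases of an annotated start. Only RPL6 and RPL26L1 had none. The split is thus mostly by where the tract begins against the annotated start, not by whether a tract is present. The 18 measured members with the tract had a median whole-gene log2 ratio of 0.59 (range -0.71 to 1.17), and the 10 without it, among those with a RefSeq entry, 0.00 (-0.40 to 1.36). At start codons the medians were 0.90 and 0.27. In leaders the order was the other way, with 1.75 over 15 members and 2.01 over 9. The ranges overlapped in each case, and the annotated start need not be the one these cells use.

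Across members, the ratio of the start codon and that of the coding sequence were weakly related (Pearson's r 0.32, Spearman's rho 0.28, 35 genes), as were those of the start codon and the leader (0.20 and 0.24, 31 genes). These are across genes, which share both libraries and are not independent.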
